A study of Rattus norvegicus with 6 samples.

Results

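The Cyp2c and Cyp2a genes encode cytochrome P450 monooxygenases of the liver, and they were measured here by every probe set whose annotation names a gene with a symbol that starts with Cyp2c or Cyp2a. This gave 11 probe sets for 10 genes, out of 31042 gene probe sets. They were Cyp2c6v1, Cyp2c7, Cyp2c11, Cyp2c12, Cyp2c13, Cyp2c22, Cyp2c23, Cyp2a1, Cyp2a2 and Cyp2a3, with an 11th probe set annotated to both Cyp2a1 and Cyp2a2. Liver RNA came from 6 male rats of the outbred stock BrlHan:WIST@Jcl(GALAS), which arrived aged 4 weeks, spent 1 week in quarantine and were sampled aged 7 weeks, per the labels. For 2 weeks, 3 of them ate a control diet without the compound and 3 a diet with epsilon-momfluorothrin, a pyrethroid insecticide. Titles and treatment protocol give the dietary level as 3000 ppm and the other labels as 5000 ppm, so the group is called treated and its dose is not settled. Each animal had 1 Affymetrix array. The study is known for asking whether this insecticide acts on the rat liver as activators of the nuclear receptor CAR do.

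P450 enzymes insert an oxygen atom into steroids, fatty acids, retinoids and drugs, with electrons passed on by P450 oxidoreductase and cytochrome b5. In the rat several Cyp2c and Cyp2a genes differ between the sexes. Growth hormone reaches the male liver in pulses that activate STAT5b and sustain male genes such as Cyp2c11, while the near-continuous hormone of females sustains Cyp2c12. CAR and the related receptor PXR are best known for inducing Cyp2b and Cyp3a genes, and Cyp2c6 is a weaker target of phenobarbital-type inducers.

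On chromosome 1 of assembly GRCr8 the 3 Cyp2a genes come in the order Cyp2a3, Cyp2a1, Cyp2a2. The Cyp2c genes follow, with Cyp2c13 the next of them after Cyp2c12. Only genes with these names were ordered, so other genes between them were not looked for. RefSeq promoter windows of 300 bases (250 before and 50 after the annotated start) were matched for 8 of the 10 genes. Those of the 3 genes whose groups did not overlap (Cyp2c7, Cyp2c11 and Cyp2c13), of Cyp2c12, which had the largest difference, and of Cyp2c23, which varied least, are shown 5′ to 3′, build GRCr8, with letters matching a searched motif in capitals.
Cyp2c11, chr1:246174966-246175265, plus strand: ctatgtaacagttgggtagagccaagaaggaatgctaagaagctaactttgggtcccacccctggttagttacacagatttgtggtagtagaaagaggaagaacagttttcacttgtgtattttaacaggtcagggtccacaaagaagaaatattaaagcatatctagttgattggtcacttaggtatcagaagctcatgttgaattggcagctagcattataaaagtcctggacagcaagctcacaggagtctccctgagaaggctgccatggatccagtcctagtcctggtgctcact
Cyp2c13, chr1:248787139-248787438, minus strand: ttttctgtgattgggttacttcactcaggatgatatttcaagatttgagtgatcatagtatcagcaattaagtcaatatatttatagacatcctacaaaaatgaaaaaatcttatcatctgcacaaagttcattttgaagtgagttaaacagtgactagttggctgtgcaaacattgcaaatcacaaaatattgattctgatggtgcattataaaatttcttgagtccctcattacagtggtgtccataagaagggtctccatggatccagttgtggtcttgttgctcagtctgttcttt
Cyp2c7, chr1:247966144-247966443, plus strand: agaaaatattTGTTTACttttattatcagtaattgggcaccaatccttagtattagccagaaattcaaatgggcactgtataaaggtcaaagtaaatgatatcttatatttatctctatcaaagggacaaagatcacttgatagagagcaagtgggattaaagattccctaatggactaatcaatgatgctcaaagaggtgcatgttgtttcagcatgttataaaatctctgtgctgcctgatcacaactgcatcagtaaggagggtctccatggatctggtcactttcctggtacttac
Cyp2c12, chr1:248676985-248677284, minus strand: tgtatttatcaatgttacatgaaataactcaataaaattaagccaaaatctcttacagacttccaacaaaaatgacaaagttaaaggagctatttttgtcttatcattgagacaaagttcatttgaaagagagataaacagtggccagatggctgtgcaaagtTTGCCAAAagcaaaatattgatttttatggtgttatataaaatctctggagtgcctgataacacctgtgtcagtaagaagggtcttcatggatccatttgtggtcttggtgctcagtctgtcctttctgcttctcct
Cyp2c23, chr1:252863018-252863317, minus strand: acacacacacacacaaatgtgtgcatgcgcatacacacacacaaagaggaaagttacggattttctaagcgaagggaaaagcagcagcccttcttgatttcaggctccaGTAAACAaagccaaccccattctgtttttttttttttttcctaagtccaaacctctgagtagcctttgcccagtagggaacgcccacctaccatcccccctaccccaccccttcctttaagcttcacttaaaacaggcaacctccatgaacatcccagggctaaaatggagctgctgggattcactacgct
The motifs were searched on both strands. The STAT5 motif TTCNNNGAA was found in 0 of the 8 windows and in 8.87% of 33469 RefSeq promoters of the same length. Direct repeats of AGTTCA or of AGGTCA with any 4 bases between the copies, a layout that CAR and PXR can bind, were in 0 of 8 windows and in 0.012% and 0.00598% of all promoters, and the HNF4 motif CAAAGTCCA was in 0 of 8 and 0.391%. The HNF3 motif TGTTTAC was in 3 of 8 windows (Cyp2c7, Cyp2c22 and Cyp2c23) and in 3.78% of all promoters. The C/EBP motif TTGCNNAA was in 3 of 8 (Cyp2a3, Cyp2c12 and Cyp2c22) and in 10.6% of all promoters. No window shown held more than 1 match, so no motifs overlapped there. A missing match says only that these letters are not in these windows. Over the 28 pairs of windows, aligned end to end, Cyp2c12 and Cyp2c13 shared the most bases, 224 of 300, although the former is known as a female and the latter as a male gene. The other pairs shared 164 to 202.

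Of the 11 probe sets, 10 had a signal above the array median on all 6 arrays and were tested. In the fit over all 15777 kept probe sets (limma, Benjamini-Hochberg adjusted p under 0.05), 0 of these 10 passed in either direction, with adjusted p from 0.371 to 0.982. Over all kept probe sets 27 passed, which is 0.171%: 21 higher (0.133%) and 6 lower (0.038%) in treated animals. This split was 65 and 5 with median centring, and 31 and 4 with the arrays scaled on bright probe sets other than the members. At an unadjusted p under 0.05 in limma, 2 members were lower, Cyp2c7 and Cyp2c13, and 0 were higher, against 6.64% of all kept probe sets lower and 4.92% higher. The median log2 difference, treated minus control, was 0.012 over the 10 members and -0.034 over all kept probe sets. With Cyp2c12 left aside, the 95% intervals of the other 9 differences, from the same fit, lay between 21.2% lower and 25.3% higher. A doubling of the signal lay outside every one of those 9 intervals. These 9 were at the 96.9th to 99.8th percentile of mean signal. Whether signals this bright follow the amount of RNA in proportion was not tested.

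**Figure D1:**
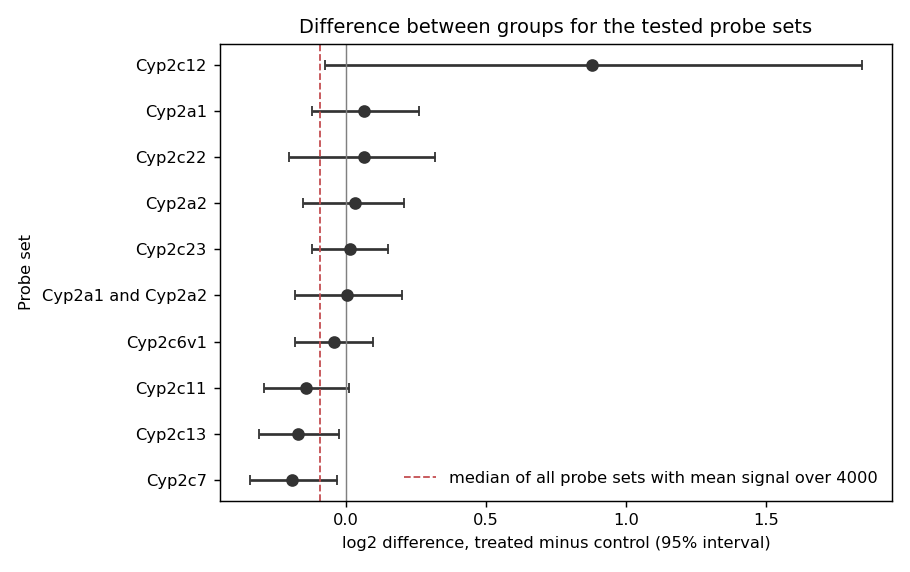
log2 difference in signal between treated and control livers (horizontal axis) for each of the 10 tested probe sets, with 95% intervals from the limma fit (n = 3 arrays per group); the dashed line is the median of all probe sets with a mean signal over 4000, at -0.091. The intervals of Cyp2c7 (-0.34 to -0.029) and Cyp2c13 (-0.31 to -0.023) end below 0 before adjustment, and that of Cyp2c12 is the widest, from -0.075 to 1.84.

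Among the male-specific genes, Cyp2c11, the main testosterone hydroxylase of the adult male liver (probe set 1387328_at), had signal values of 7346, 7162 and 7525 in control livers and 6316, 6793 and 6962 in treated animals. Every treated value was below every control value. The means were 7344 ± 182 and 6690 ± 335 (SD, n = 3), a log2 difference of -0.14 ± 0.066 (SE), or 8.96% lower (the interval runs from 17.9% lower to 0.994% higher). It did not pass the threshold (adjusted p = 0.474 in limma). Cyp2c13, another male steroid hydroxylase (1370495_s_at), gave 7231, 7399 and 6848 in controls and 6217, 6331 and 6556 in treated animals. Here too the groups did not overlap, with the highest treated array below the lowest control array. The log2 difference was -0.17 ± 0.064 (SE, n = 3, adjusted p = 0.382 in limma). The suffix _s_at marks probes that transcripts of different genes can share, so this signal may include other Cyp2c genes.

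Cyp2c7, a retinoic acid hydroxylase that is more abundant in females but well expressed in males (1370241_at), had signal values of 8615, 8902 and 8349 in controls and 7194, 7435 and 8115 in treated animals. Again the groups did not overlap, and treated replicate 3 came closest to the controls. The means were 8622 ± 276 and 7581 ± 478 (SD, n = 3), a log2 difference of -0.19 ± 0.069 (SE) or 12.2% lower, with the smallest p among the members (0.0251 unadjusted and 0.371 adjusted, in limma).

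Groups that did not overlap were thus found for 3 of the 10 members, all lower in treated animals, against 10.4% of all kept probe sets, and for 0 of 10 higher, against 7.4%. The 3 genes are among the brightest on the array, and brightness moved with the groups. Of the 195 kept probe sets with a mean signal over 4000, 77.4% were lower in treated animals, with a median log2 difference of -0.091, and 31.3% had all treated values below all control values. Of the 6 members in that class, 3 did. The same share was 7.55% for signals of 1000 to 4000. The part of brightness in the lower signals of Cyp2c7, Cyp2c11 and Cyp2c13 was not tested. With each array set to the median of those bright probe sets, an alternative chosen after seeing the data, the log2 differences were -0.13, -0.081 and -0.11, in that order. With quantile normalization they were -0.072, -0.0061 and -0.052. With median centring, which raised the median difference of all kept probe sets from -0.034 to 0.14, they were -0.014, 0.038 and 0.0049, so that the direction of Cyp2c11 and Cyp2c13 turned.

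**Figure D2:**
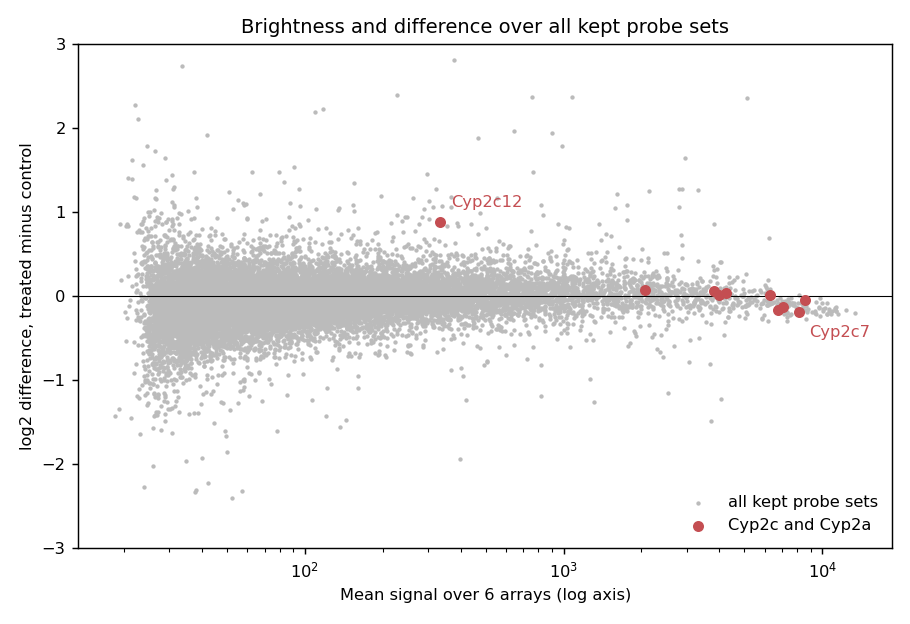
Mean signal over the 6 arrays (horizontal, log axis) and log2 difference, treated minus control (vertical), for the 15777 kept probe sets in grey and the 10 tested Cyp2c and Cyp2a probe sets in red; 3 grey points lie outside the plotted range of 3 either way. Except for Cyp2c12 the red points sit at the bright end, and 6 of them over a signal of 4000, where 77.4% of all kept probe sets lie below 0.

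**Figure D3:**
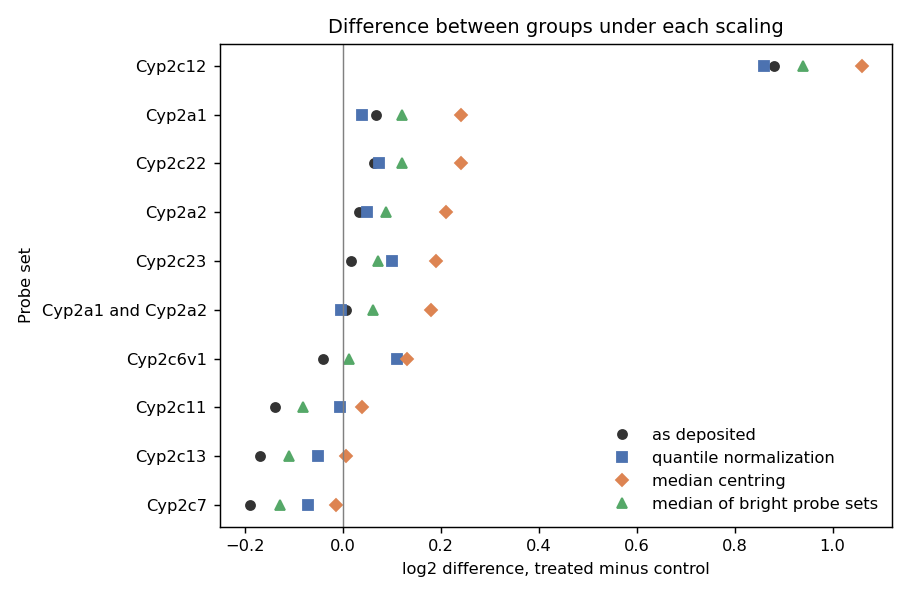
log2 difference, treated minus control (horizontal), of each tested probe set with the signals as deposited and under 3 other scalings of the arrays. Median centring and scaling on bright probe sets move every point by the same amount, so they cannot change the order. With quantile normalization, which can, Cyp2c7, Cyp2c13 and Cyp2c11 were still the lowest of the 10. Cyp2c11, at -0.0061, was then hardly below the probe set shared by Cyp2a1 and Cyp2a2, at -0.005.

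Bulk RNA cannot tell fewer cells of a type from less RNA per cell. Of 7 hepatocyte markers 6 were tested, and 0 passed. The log2 difference was between -0.068 (Apoa1) and -0.22 (Serpina1, ± 0.069 SE, adjusted p = 0.304 in limma) for Alb, Apoa1, Ttr, Serpina1 and Fgb, with Ttr at -0.15 ± 0.071 (adjusted p = 0.459), and it was close to 0 for Hnf4a (-0.0013 ± 0.11 SE). The 6 had a median log2 difference of -0.14 and a summed signal of 44597 to 50601 in controls and 39502 to 46867 in treated animals. Alb, Apoa1, Ttr, Serpina1 and Fgb were over 4000 on every array, and Hnf4a was at 2004 to 2759. Of all kept probe sets with a mean signal over 4000, 77.4% were lower in treated animals, with a median of -0.091. The part of brightness in the marker values, and of the markers in the lower Cyp2c signals, was not tested. The median was -0.15 over 5 Kupffer cell markers, -0.044 over 6 stellate and 0.0045 over 6 endothelial markers, and 0 of these passed. The 2 smallest p in each list belonged to Clec4f (-0.33 ± 0.13) and Csf1r (-0.22 ± 0.12) for Kupffer cells, Col1a1 (-0.27 ± 0.17) and Dcn (0.27 ± 0.23) for stellate cells, and Eng (-0.45 ± 0.12) and Lyve1 (0.31 ± 0.14, SE, adjusted p = 0.222 to 0.679 in limma) for endothelial cells. Eng gave 195, 243 and 245 in controls and 168, 164 and 167 in treated animals, without overlap. Of the blood markers 3 were tested, with Slc4a1 at -0.29 ± 0.25 and Alas2 at 0.16 ± 0.21. Of the lymphocyte and neutrophil markers 2 were tested, Cd4 at -0.29 ± 0.33 and Ptprc at -0.037 ± 0.15, and of the pancreas and fat markers only Cfd, at -0.36 ± 0.20 (SE, adjusted p = 0.535 to 0.94 in limma). Of 4 cholangiocyte markers with a probe set only Epcam was bright enough to test (0.63 ± 0.16 SE, adjusted p = 0.22 in limma).

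Cyp2c6v1, which encodes CYP2C6, the phenobarbital-responsive form found in both sexes (1370580_a_at), had signal values of 8797, 8757 and 8536 in controls and 8501, 8089 and 8771 in treated animals. The groups overlapped through treated replicate 3. The log2 difference was -0.042 ± 0.062 (SE, n = 3, adjusted p = 0.828 in limma), and its 95% interval ran from 11.9% lower to 7.13% higher. Its sign turned with quantile normalization (0.11), median centring (0.13) and scaling on bright probe sets (0.013). Cyp2c22, a retinoid-metabolising member (1387949_at), gave 3299, 4229 and 3659 in controls and 3451, 4400 and 3838 in treated animals. Replicate 1 was the lowest and replicate 2 the highest in both groups, which overlapped almost entirely. The difference was 0.064 ± 0.12 (SE, adjusted p = 0.86 in limma).

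Cyp2c23, an arachidonic acid epoxygenase of liver and kidney (1367988_at), was the steadiest member. Its values were 6127, 6245 and 6291 in controls and 6307, 6325 and 6244 in treated animals. The coefficient of variation was 1.36% in controls and 0.676% in treated animals, and the residual SD of 0.016 on the log2 scale was the smallest of the 195 probe sets over 4000, whose median was 0.084. The log2 difference was 0.016 ± 0.059 (SE, n = 3), with an interval from 7.84% lower to 11% higher and an adjusted p of 0.934 in limma. This SE is far wider than the 6 values alone would give because limma draws each variance towards that of probe sets of like brightness.

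For each of the 3 tested Cyp2a probe sets the groups overlapped. Cyp2a1, a testosterone hydroxylase more abundant in adult females (1387511_at), had signal values of 2028, 2052 and 1946 in controls and 2297, 1919 and 2111 in treated animals. Treated replicate 1 was the highest and treated replicate 2 the lowest of the 6. Cyp2a2, its male-specific counterpart (1369424_at), gave 4112, 4342 and 4091 in controls and 4275, 3916 and 4663 in treated animals. Treated replicates 2 and 3 lay on either side of all controls. The probe set annotated to both genes (1369275_s_at) gave 4028, 4054 and 3863 in controls and 3856, 3708 and 4472 in treated animals, with treated replicate 3 again the highest. The 3 log2 differences were 0.067 ± 0.084, 0.032 ± 0.08 and 0.0067 ± 0.084 (SE, n = 3, adjusted p = 0.794, 0.904 and 0.982 in limma). These probe sets share targets and are not independent measurements. In all 3 the treated livers varied more than the controls, with coefficients of variation of 8.97%, 8.71% and 10.1% against 2.79%, 3.33% and 2.59%; this was not tested. Cyp2a3, known from the lung and nasal mucosa (1369136_at), had no array above the array median. Its values were 15, 1.06 and 0.774 in controls and 5.19, 3.87 and 4.74 in treated animals, and no fold is given between values at this level. Array medians were 23.07 to 29.41.

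**Figure D4:**
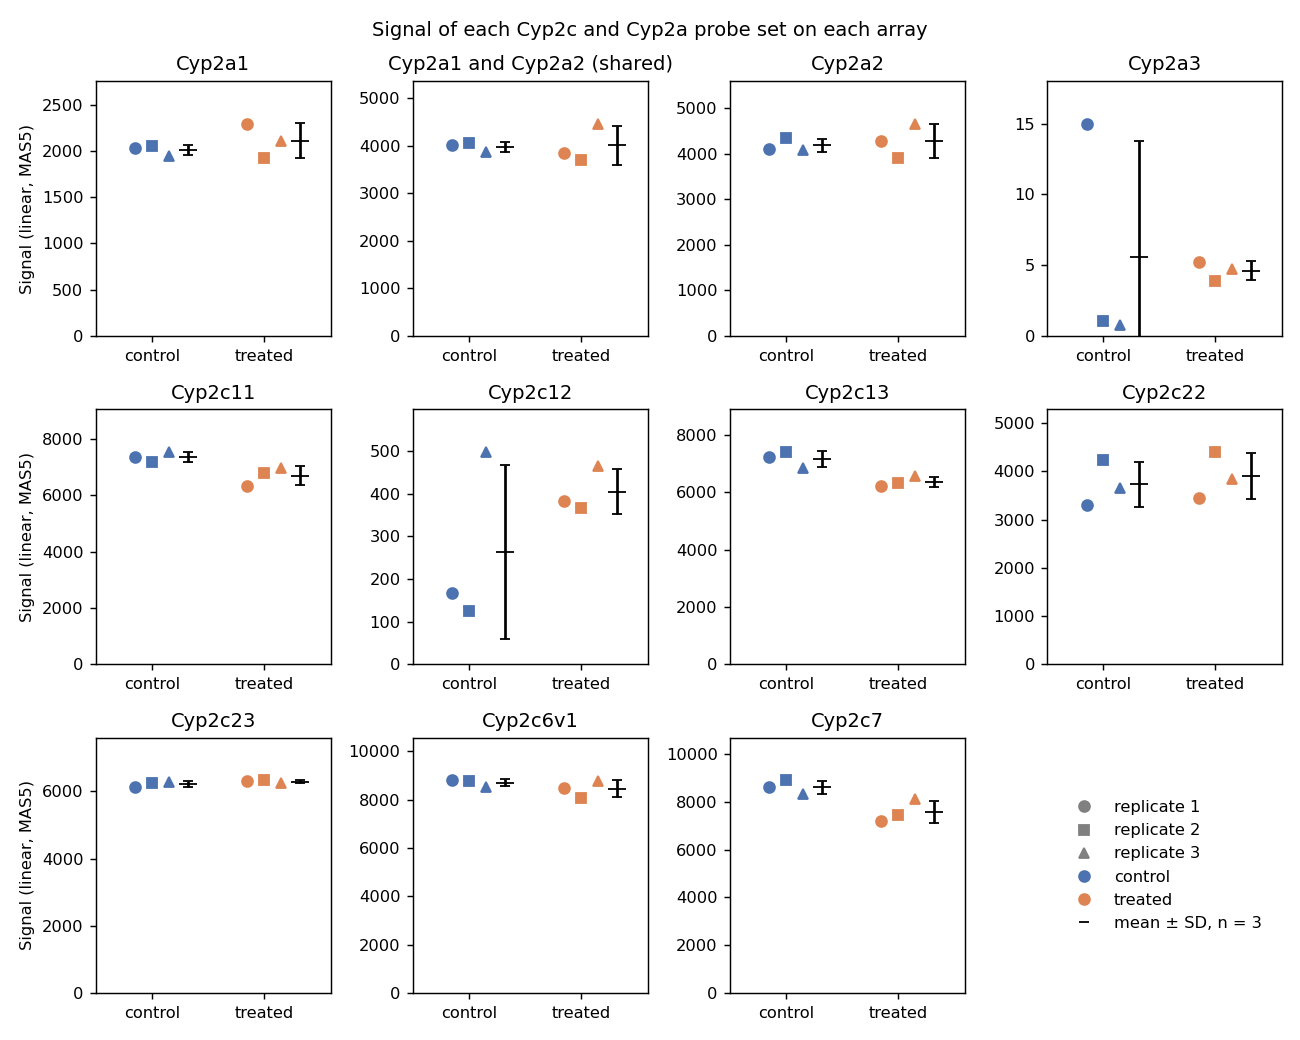
Linear signal of each of the 11 probe sets on each of the 6 arrays, from 0, with circles, squares and triangles for replicates 1, 2 and 3, blue for control and orange for treated livers, and mean ± SD (n = 3) at the side of each group. Cyp2c12 has 1 control array, at 498, far from the other controls at 167 and 125, and Cyp2a3 never exceeds 15.

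Cyp2c12, the steroid sulfate hydroxylase specific to the female liver (1368155_at), had the largest difference and the largest spread. Its values were 167, 125 and 498 in controls and 383, 367 and 466 in treated animals. Treated livers were all above control replicates 1 and 2, and all below control replicate 3. The means were 263 ± 204 and 405 ± 53.2 (SD, n = 3), a log2 difference of 0.88 ± 0.42 (SE), or 1.85-fold with an interval of 0.95 to 3.59, and it did not pass the threshold (adjusted p = 0.468 in limma). Its residual SD of 0.754 on the log2 scale was at the 98th percentile of all kept probe sets. Control replicate 3 decided the call. Without it the difference was 1.48 ± 0.16 (SE, 2 control and 3 treated arrays), 2.79-fold, with an adjusted p of 0.0321 in limma. Over the 6 fits that leave out 1 array each, the difference ranged from 0.48 to 1.48 and the adjusted p from 0.0321 to 0.737. Cyp2c12 was higher in treated animals under each of the 17 other settings, and passed only without control replicate 3. Settings that change only the filter, the variance estimate or the replicate block leave the difference at 0.88. The count of directions therefore adds little.

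In the lists of hormone-dependent genes, control replicate 3 was the highest or lowest of the 6 arrays for 5 of 10 growth hormone axis genes, 3 of 7 other male-predominant and 4 of 5 other female-predominant genes, against 37.8% of all 9200 genes tested. The lists are small, and the differences from that share were not tested. Other arrays stood out as well. Control replicate 2 was the highest or lowest for 4 of the 7 male-predominant genes. Treated replicate 3 was so for 3 of the 5 female-predominant genes and for 38.1% of all genes. Among the 10 tested Cyp2c and Cyp2a probe sets, treated replicate 2 was so for 6, treated replicate 1 for 4 and control replicate 3 for 2. Over all genes those 2 treated arrays were so for 29.4% each. Cyp3a9, another female-predominant P450, gave 1296, 718 and 2435 in controls and 1541, 1106 and 1412 in treated animals, with control replicate 3 the highest of the 6, as for Cyp2c12. Cish, a feedback inhibitor that growth hormone induces through STAT5, gave 36.9, 55.2 and 155 in controls and 28.5, 45.5 and 29.5 in treated animals. Socs2, a further target of that pathway, gave 80.2, 31.9 and 124 in controls and 25.7, 89.3 and 20.1 in treated animals. In treated replicates 1 and 3, Socs2 lay below the array medians of 25.93 and 23.07, and Cish was little above them. For both genes control replicate 3 was the highest array. Not every gene did so: Igf1 gave 5563, 5250 and 5316 in controls, with control replicate 3 between the others. The sulfotransferase Sult2a6 had 1718, 1664 and 557 in controls and 2455, 2273 and 1880 in treated animals, and the prolactin receptor gene Prlr had 262, 267 and 143 in controls and 419, 457 and 485 in treated animals. Control replicate 3 was the lowest array for both. These genes were picked after their values were seen, and their part in the Cyp2c12 value of that animal was not tested.

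**Figure D5:**
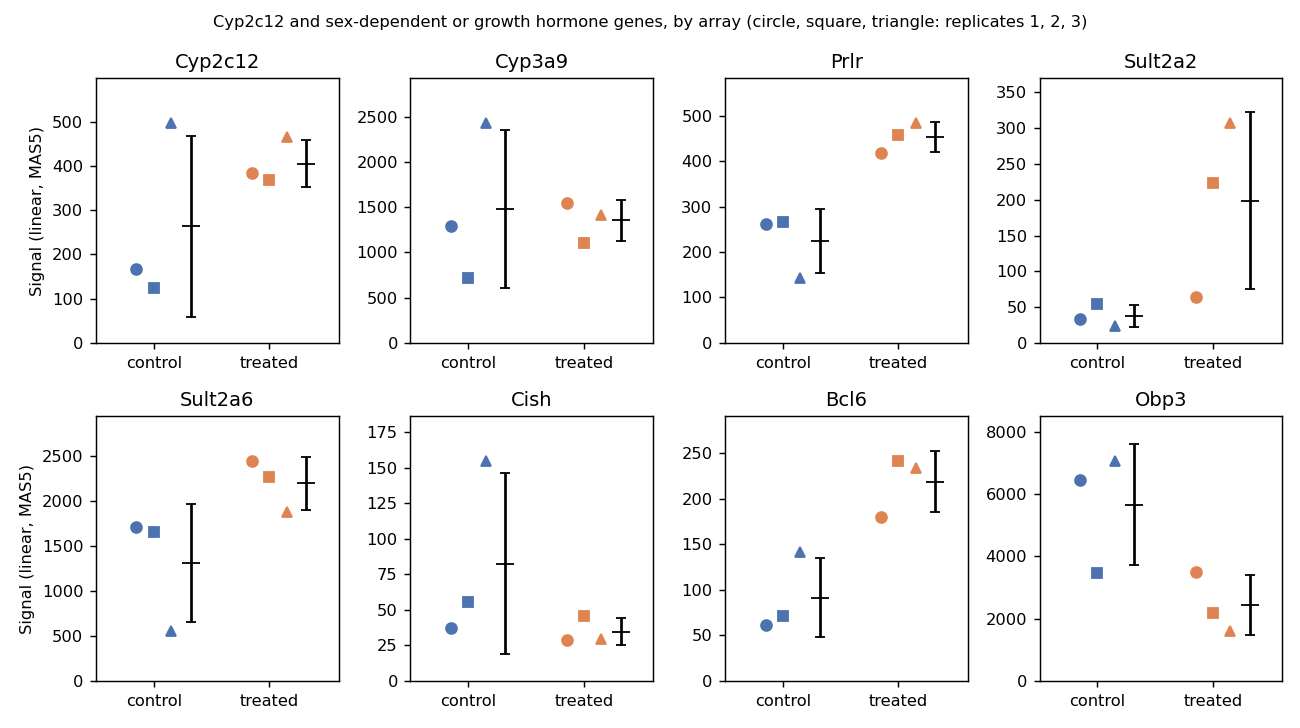
Linear signal from 0 of Cyp2c12 and 7 sex-dependent or growth hormone genes on each array, with circles, squares and triangles for replicates 1, 2 and 3, blue for control, orange for treated and mean ± SD (n = 3). The triangle of control replicate 3 is the highest of the 6 arrays for Cyp2c12, Cyp3a9, Cish and Obp3. It is the lowest for Prlr, Sult2a2 and Sult2a6, and neither for Bcl6.

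The genes around the Cyp2c and Cyp2a enzymes were followed in lists, described by counts beside the 9200 genes tested, of which 0.196% passed higher and 0.0217% lower, with a median log2 difference of -0.012. That median lies just below 0, so somewhat more of all genes were lower than higher. The exact shares were not counted, and the directions in the lists were not tested against them. Of 8 other male-predominant genes 7 were tested and 0 passed, with 6 lower and a median of -0.16. Obp3, a urinary lipocalin of the male liver, gave 6454, 3459 and 7084 in controls and 3487, 2181 and 1609 in treated animals (log2 -1.23 ± 0.31 SE, adjusted p = 0.218 in limma), and the groups overlapped only through control replicate 2 and treated replicate 1. Hsd11b1, which regenerates active glucocorticoid, was the exception at 0.22 ± 0.068 (SE, adjusted p = 0.283 in limma). Of 9 other female-predominant genes 5 were tested and 0 passed, with a median of 0.91 and 4 higher. The fifth, the estrogen sulfotransferase Sult1e1, was at -0.30 ± 0.098 (SE, adjusted p = 0.309 in limma), and its place in this list is doubtful, since it is known to be abundant in the male rat liver. Leaving it out was not planned beforehand, and then 4 of 4 were higher, with a median of 0.99. Cyp3a9 among them, at 0.029 ± 0.36 (SE), was higher by far less than its SE. Prlr was at 1.07 ± 0.22 and the hydroxysteroid sulfotransferase Sult2a2 at 2.23 ± 0.53 (SE, adjusted p = 0.136 and 0.187 in limma). Sult2a2 gave 33.4, 54.2 and 23.9 in controls and 64.6, 224 and 308 in treated animals, without overlap. Its value in control replicate 3 was below the array median of 29.41. Sult2a2 passed without treated replicate 1 (2.90, adjusted p = 0.0296 in limma). Sult2a1, A1bg and Cux2 were never above the array median.

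Of 13 growth hormone axis genes 10 were tested and 0 passed, with 7 lower and a median of -0.21. Bcl6, a repressor that opposes STAT5 at liver genes, gave 61.1, 71.7 and 141 in controls and 180, 242 and 234 in treated animals. The groups did not overlap, and control replicate 3 was the highest control. The log2 difference was 1.35 ± 0.28 (SE, n = 3, adjusted p = 0.144 in limma). Without control replicate 3 it was 1.71 with an adjusted p of 0.0177, and with median centring 1.52 with 0.0312. The kinase gene Jak2, near the array median, was at -0.64 ± 0.28 (adjusted p = 0.429 in limma). The receptor Ghr, at 0.084 ± 0.077, and its target Igf1, at -0.073 ± 0.069 (SE, adjusted p = 0.707 and 0.715 in limma), did not pass either.

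Of 31 other P450 genes of families 1 to 3, 15 were tested and 0 passed, with 11 lower and a median of -0.072. Cyp2b3 was the only Cyp2b gene among the 15. Cyp2b1, Cyp2b2 and Cyp1a1 were not tested, so these counts do not cover them. Cyp2j4, a fatty acid epoxygenase, came closest. It gave 1081, 1258 and 1120 in controls and 1633, 2076 and 2002 in treated animals, without overlap (0.72 ± 0.11 SE, adjusted p = 0.0531 in limma), and it passed under 6 other settings, with adjusted p of 0.0278 to 0.0454. The male-specific Cyp3a2 resembled Cyp2c11 in size, at -0.16 ± 0.069 (adjusted p = 0.425 in limma). In the electron supply, 6 of 6 genes were tested and 0 passed, with 5 higher and a median of 0.082. The reductase Cyb5r3 was at 0.20 ± 0.074 and the heme-binding Pgrmc2 at -0.25 ± 0.095 (SE, adjusted p = 0.378 and 0.387 in limma). P450 oxidoreductase, Por, gave 943, 1131 and 461 in controls and 765, 949 and 801 in treated animals, with control replicate 3 the lowest of the 6.

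Of 19 regulators 18 were tested and 0 passed, with 9 higher, 9 lower and a median of 0.049. The gene of CAR, Nr1i3, gave 308, 344 and 249 in controls and 350, 359 and 405 in treated animals, without overlap (0.32 ± 0.13 SE, adjusted p = 0.421 in limma). Nr0b2, which encodes the repressor SHP, was at 1.16 ± 0.32 and Foxa3 at -0.41 ± 0.13 (SE, adjusted p = 0.241 and 0.292 in limma). Because several Cyp2c enzymes are known to be richer around the central vein, zonation was checked. Pericentral genes had 6 of 8 lower and a median of -0.18. Oat was at -0.56 ± 0.11 and Gulo at -0.43 ± 0.089 (SE, adjusted p = 0.136 for both in limma). Glul counted as lower at -0.0099, and the 2 higher genes were Cyp7a1 at 0.91 ± 0.39 and Slc1a2 at 0.099 ± 0.15 (SE). Periportal genes had 8 of 10 lower and a median of -0.11, with Sds at -0.77 ± 0.26 and Cps1 at -0.20 ± 0.068 (SE, adjusted p = 0.332 and 0.338 in limma). Cyp2e1, Cps1, Ass1, Arg1 and Pck1 were in the class with a mean signal over 4000, where 77.4% of kept probe sets were lower. The part of brightness in these values was not tested. In each of these lists 0 passed.

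Among 9139 other named genes, the 3 whose log2 signal followed that of Cyp2c7 most closely over the 6 arrays were Lcat, the plasma cholesterol acyltransferase, the heme carrier Hpx and the RNA-editing gene Adarb1, at Pearson's r of 0.99, 0.98 and 0.98. For Cyp2c6v1, the brightest member, they were Nfat5, Clybl and Tom1l3, each at 0.99. With 6 arrays such values are common, and 95 and 65 genes had r over 0.9 with these members. All arrays share the scaling described above.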

How the data were processed

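The authors deposited 1 linear intensity, or signal, per probe set. MAS5 made it, per the submitters' processing notes, with settings not given in the sources used here. Each array had the same trimmed mean of 100, so no further scaling was applied. Names came from GEO's platform annotation, in which 20826 of 31042 gene probe sets had 1 symbol, 436 several and 9780 none; 57 Affymetrix control probe sets were left out. Probe sets brighter than the array median on 3 or more of the 6 arrays were kept. log2 signals without pseudocount were compared with limma 3.58.1 in R 4.3.3 (eBayes with intensity trend, 2-sided, Benjamini-Hochberg over 15777 probe sets, threshold 0.05). The fit was also run on simulated arrays with independent normal noise. They had no shift between arrays, so that run cannot speak to the scaling. Intervals are limma's 95% intervals before adjustment. A listed gene was represented by its brightest kept probe set. Every member is described; in each list the members past the threshold or else the 2 with the smallest p are named, with others picked by value where stated. Lists were read by counts and medians, without set tests. Members and lists were chosen with earlier results of these data known. Replicates are separate animals per the labels, which give no batch. The number of arrays limits precision. Promoters are RefSeq's, aligned globally (match 1, mismatch -1, gap -2 and -0.5).

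Arrays correlated at r = 0.964 to 0.97 within control, 0.972 to 0.974 within treated and 0.958 to 0.971 between groups. Array medians were 28.3 ± 1.19 and 25.2 ± 1.83 (SD, n = 3, exact permutation p = 0.1, 2-sided, the smallest that 3 against 3 allows).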

Additional observations from a re-analysis of the deposited data

How the results depend on the processing

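With 15 alternatives and 2 more chosen after seeing the data, 0 Cyp2c or Cyp2a probe sets passed in either direction, except that leaving out 1 array each gave 0 to 1 higher (Cyp2c12 without control replicate 3).

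Directions that turned were small. With quantile normalization the probe set shared by Cyp2a1 and Cyp2a2 was at -0.005 and Cyp2c6v1 at 0.11; with array weights the shared set was at -0.0073. With median centring Cyp2c11 was at 0.038, Cyp2c13 at 0.0049 and Cyp2c6v1 at 0.13. Scaling on bright probe sets put Cyp2c6v1 at 0.013, or 0.0091 without the members. Leaving out 1 array each gave -0.074 to 0.061 for the shared set, -0.031 to 0.095 for Cyp2a2 and -0.028 to 0.16 for Cyp2c22.

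Over all probe sets, the 21 higher calls became 65 with median centring, 37 with bright scaling and 3 without an intensity trend, and 3 to 23 without 1 array (13, 3 and 5 without treated replicates 1, 2 and 3). The 6 lower calls became 3 without a filter, 0 without an intensity trend in limma (where 1097 were lower at an unadjusted p under 0.05), 13 with robust variance, and 2 to 6 without 1 array (3, 2 and 3 without treated replicates 1, 2 and 3). The number of other P450 genes past the threshold became 1 (Cyp2j4) with median centring, pseudocount 16, robust variance, both bright scalings and 0 to 1 without 1 array; growth hormone axis genes became 1 (Bcl6) with median centring and 0 to 1 without 1 array; other female-predominant genes 0 to 1 without 1 array.

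The replicate numbers did not pair the samples: deviations of equal numbers correlated at -0.0998, 0.104 and -0.0648. A replicate block gave 10 probe sets higher and 5 lower, and 0 members.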
